A study of Rattus norvegicus with 112 samples.

Results

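Primary cortical neurons of the rat were kept in 1 mM NMDA for 30 min and collected at the end of the exposure, and their RNA was compared with RNA of control neurons of the same array run. NMDA is the glutamate analogue that gives the NMDA receptor its name. The comparison rests on 3 arrays labelled with 30 min of NMDA and 3 arrays labelled as control, both sets numbered 2, 3 and 4 in their titles. They were chosen by these labels, without regard to any measured value, and are 6 of the 112 arrays of the series. The run holds 18 arrays in all, the other groups being 10, 60, 180 and 360 min of NMDA at the same concentration with 3 arrays each. All are total RNA of cells from the cerebral cortex. The age of the cultures, the strain of the animals and the handling of the control dishes are not given in the sources used here, and the labels do not say that equal numbers mark 1 culture. The numbers are called culture 2, 3 and 4 here because arrays of equal number deviated together, and p-values measure the spread between these arrays.

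The NMDA receptor is a glutamate-gated cation channel that lets calcium into the neuron. Calcium-activated kinases then act on transcription factors already present in the cell, among them CREB, which binds the cAMP response element (CRE), and serum response factor, which binds the CArG box. The first genes to respond, the immediate early genes, need no new protein for their transcription. Many of them encode transcription factors themselves (Fos, Junb, Egr1, the Nr4a receptors), while others that respond later encode secreted or synaptic proteins such as the neurotrophin Bdnf.

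The control and 30 min arrays were alike in quality. Median correlations of each with the other arrays of the run lay between 0.902 and 0.933, and the 3′ to 5′ signal ratio of the Gapdh control probe sets lay between 1.29 and 1.75 in the controls and between 1.35 and 1.91 after 30 min. Of the 12 neuron markers on the array 11 passed the filter on low signal, led by the tau gene Mapt, and their summed signal was 173539 to 253789 in the controls and 168859 to 235514 after NMDA. The 7 astrocyte markers were also present, led by Apoe, with sums of 52604 to 98034 and 51854 to 97817, and fewer cells of a type and less RNA per cell cannot be told apart in such sums or in any value below. The sums for 6 oligodendrocyte markers, led by Pdgfra and with 4 above the filter, were 6657 to 11264 and 7286 to 10235. Those for 3 microglial markers were 454 to 1091 and 455 to 925 with no marker above the filter. The 1 endothelial marker, Slc2a1, read 1035 to 1450 and 810 to 1673.

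The upstream sequences of Egr1, Junb and Nr4a1, and of Crem beside them, are shown because the regulators named above are known to act there. Each is the 250 bases before an annotated RefSeq start site on the rat build GRCr8, 5′ to 3′ on the strand of the gene, with the CRE (TGACGTCA), the CRE core (TGACG) and the CArG box in capitals, each searched on both strands. Egr1, Junb and Nr4a1 (at 1 of its 2 probe sets) were above every control array at 30 min, and Crem was not.
Egr1, chr18:26736828-26737077, plus strand: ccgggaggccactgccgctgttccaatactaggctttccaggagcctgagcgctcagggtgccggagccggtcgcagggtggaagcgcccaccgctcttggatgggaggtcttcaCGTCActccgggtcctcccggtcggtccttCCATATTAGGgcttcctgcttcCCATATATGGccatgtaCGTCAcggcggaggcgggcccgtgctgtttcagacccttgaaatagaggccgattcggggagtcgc
Junb, chr19:40080876-40081125, plus strand: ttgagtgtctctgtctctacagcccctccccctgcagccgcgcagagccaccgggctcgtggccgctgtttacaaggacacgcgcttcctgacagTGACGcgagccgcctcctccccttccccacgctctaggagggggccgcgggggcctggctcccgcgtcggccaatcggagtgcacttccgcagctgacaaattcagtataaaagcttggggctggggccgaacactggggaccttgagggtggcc
Nr4a1, chr7:134259888-134260137, plus strand: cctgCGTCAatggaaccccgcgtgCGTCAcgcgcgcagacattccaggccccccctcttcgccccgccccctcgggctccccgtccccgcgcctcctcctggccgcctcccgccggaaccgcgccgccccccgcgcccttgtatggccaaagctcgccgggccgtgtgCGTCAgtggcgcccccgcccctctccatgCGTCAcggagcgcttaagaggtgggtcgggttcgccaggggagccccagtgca
Crem (the third of 3 start sites), chr17:58985240-58985489, plus strand: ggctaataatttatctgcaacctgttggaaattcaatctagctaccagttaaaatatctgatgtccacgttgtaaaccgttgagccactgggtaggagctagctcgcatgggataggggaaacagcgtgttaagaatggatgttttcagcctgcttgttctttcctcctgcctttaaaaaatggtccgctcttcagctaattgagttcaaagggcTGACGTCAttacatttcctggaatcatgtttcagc
The Egr1 window holds 2 CArG boxes and 2 CRE cores, the Junb window 1 CRE core, the Nr4a1 window 4 CRE cores and the Crem window a full CRE. Among all 33469 windows of the same length in the table, 1.59% held a CRE, 18.2% a CRE core (those within a full CRE included) and 1.5% a CArG box. A match describes the letters only. Windows of Fosl2, Bdnf and the other Crem start sites were searched as well and are not printed. The Fosl2 window held no CRE, CRE core or CArG box. Of 6 Bdnf windows only the fourth held a match, a CRE core. The first Crem window held CRE cores and the second a full CRE. The RefSeq start sites used here included none for Fos or Nr4a3, so no window of either could be shown.

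After 30 min of NMDA the immediate early genes Egr1, Fos, Junb, Nr4a3 and Nr4a1 had higher signal than in the controls in all 3 cultures, by 1.44 to 2.64 on the log2 scale at their most changed probe sets. Most other probe sets differed from control by less than the spread between arrays. A log2 change is the difference between group means of log2(signal + 86.0). In the limma fit over all 18 arrays of the run, 0 of 884 probe sets passed an adjusted p (Benjamini-Hochberg) of 0.05, that is 0%, and 16 (1.81%) had an unadjusted p under 0.05. With the culture number as a block, 4 probe sets passed, all higher after NMDA (0.452%), and 22 had an unadjusted p under 0.05. These 4 were a pair of Egr1 probe sets, 1 of the 3 for Fos, and U75397UTR#1_s_at, to which the annotation gives no gene. When the control and 30 min arrays were fitted alone, without a block, 8 passed: the same 4, the other two Fos probe sets, Junb and Nr4a3. With the block and 1 array left out, 8 passed without the control of culture 3 and 0 without any 1 of the other 5 arrays.

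The ranges of the groups can be compared without a model. In 29 probe sets (3.28% of those tested) all 3 treated values lay above all 3 controls, and in 14 (1.58%) all lay below. For unpaired arrays a random order would give shares at least as large, so separation alone is not evidence of a change. Of the 29, 12 had a log2 change over 1, and 10 of these 12 belong to 5 genes of the list of 19 immediate early and activity-regulated genes. The other two were the unnamed probe set and Gabra4. Of the 36 tested probe sets of the list, 10 were above and 1 below every control. The list was chosen with earlier results of these data known, so this overlap is not independent support. Over all 884 probe sets the median log2 change was -0.01 and its SD 0.37, and 19 moved by more than 1 in either direction. The 95% interval reached 0.84 to either side at the median probe set, before any adjustment for the number of tests.

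**Figure D1:**
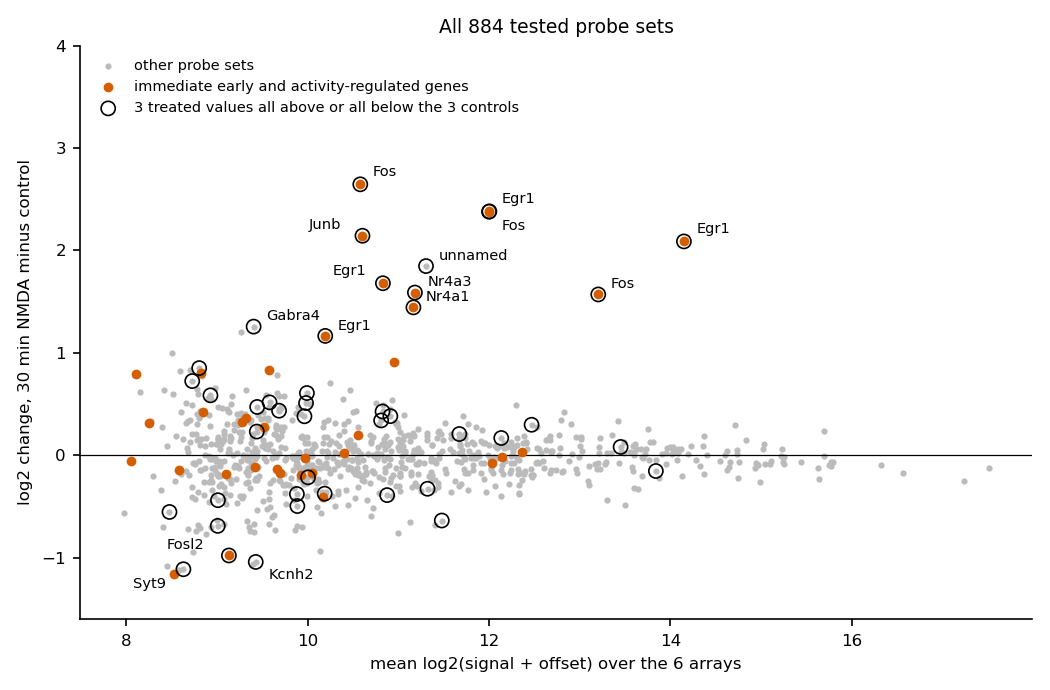
Log2 change after 30 min of NMDA (vertical) against mean log2 signal of the 6 arrays (horizontal) for all 884 tested probe sets. Orange points are the 36 probe sets of the immediate early and activity-regulated list, and rings mark the 29 probe sets above and 14 below every control. The ringed points over 1 are Egr1, Fos, Junb, Nr4a3, Nr4a1, Gabra4 and an unnamed probe set.

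Egr1, a zinc finger transcription factor, was higher in all 4 of its probe sets and in each culture. At M18416_at the controls of cultures 2, 3 and 4 read 1663, 2478 and 1214, and the 30 min arrays 11315, 6927 and 10199. The lowest treated value was thus well above the highest control, and the folds within cultures were 6.80, 2.80 and 8.40. The log2 change was 2.38 ± 0.51 (SE, n = 3 a group; 95% interval 1.31 to 3.45), with a limma adjusted p of 0.0686 without and 0.0128 with the block. AF023087_s_at, the brightest Egr1 probe set, went from 8358, 12615 and 6303 to 42130, 31307 and 39569, again with no overlap. Its log2 change was 2.09 ± 0.45 (SE), with limma adjusted p-values of 0.0686 and, with the block, 0.0128. The other two did not pass either fit: rc_AI176662_s_at differed by 1.68 ± 0.46 (limma adjusted p = 0.347, block 0.105) and U75398_s_at by 1.16 ± 0.35 (0.461 and 0.254). The unnamed U75397UTR#1_s_at read 1282, 1345 and 1126 in the controls, against 5505, 4199 and 4520 after NMDA. Its log2 change was 1.85 ± 0.40 (SE), with the same pair of limma adjusted p-values as M18416_at.

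Fos, the AP-1 partner that is the usual marker of recent neuronal activity, showed the greatest log2 change of any probe set. At X06769cds_at the controls read 432, 890 and 367 and the treated arrays 4985, 2397 and 4365. The folds were 11.6 and 11.9 in cultures 2 and 4 and 2.69 in culture 3. The log2 change was 2.64 ± 0.71 (SE; 95% interval 1.15 to 4.13), with a limma adjusted p of 0.347 without the block and 0.024 with it. X03347cds_g_at went from 1570, 2477 and 1278 to 9992, 5692 and 13874, a log2 change of 2.38 ± 0.71 (SE) that did not pass with the block (limma adjusted p = 0.0698). X06769cds_g_at, which read 4581 to 6706 in the controls, reached 13768 to 17569. Its log2 change of 1.57 ± 0.46 (SE) did not pass either fit (limma adjusted p = 0.461, block 0.105).

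Junb encodes another AP-1 subunit. It read 680, 819 and 499 in the controls and 3379, 2370 and 4021 after NMDA, so the groups were far apart. The log2 change was 2.14 ± 0.82 (SE), which did not pass in the fit over all 18 arrays (limma adjusted p = 0.998, block 0.254) and passed in the fit of the 2 groups alone (0.00851). The other AP-1 genes moved less. Jun went from 357, 1179 and 246 to 892, 740 and 1212, higher in cultures 2 and 4 and lower in culture 3 (log2 change 0.83 ± 0.66). Jund differed by -0.18 ± 0.85, and its 3 pairs did not share a sign. Fosl2 was lower in every culture, from 641, 468 and 1122 to 374, 256 and 319, a log2 change of -0.98 ± 0.65 that did not pass (limma adjusted p = 0.998, with the block too).

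The Nr4a genes encode orphan nuclear receptors. Nr4a3 at X86003_at had controls of 1236, 1308 and 1220 and treated values of 3686, 3393 and 4898, a log2 change of 1.59 ± 0.65 (limma adjusted p = 0.998, block 0.594, and 0.0101 in the fit of the 2 groups alone). Its brighter probe set rc_AI176710_at disagreed: it read 4139, 6806 and 4824 in the controls and 4450, 6278 and 5158 after NMDA, a log2 change of 0.03 ± 0.34. The third Nr4a3 probe set did not pass the filter. Nr4a1 at U17254_g_at went from 1848, 971 and 1236 to 4303, 2203 and 5323, a log2 change of 1.44 ± 0.67 (limma adjusted p = 0.998, block 0.328). Its probe set U17254_at, at 1658, 1135 and 1316 against 2994, 1514 and 3916, overlapped by 1 array and differed by 0.91 ± 0.64.

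**Figure D2:**
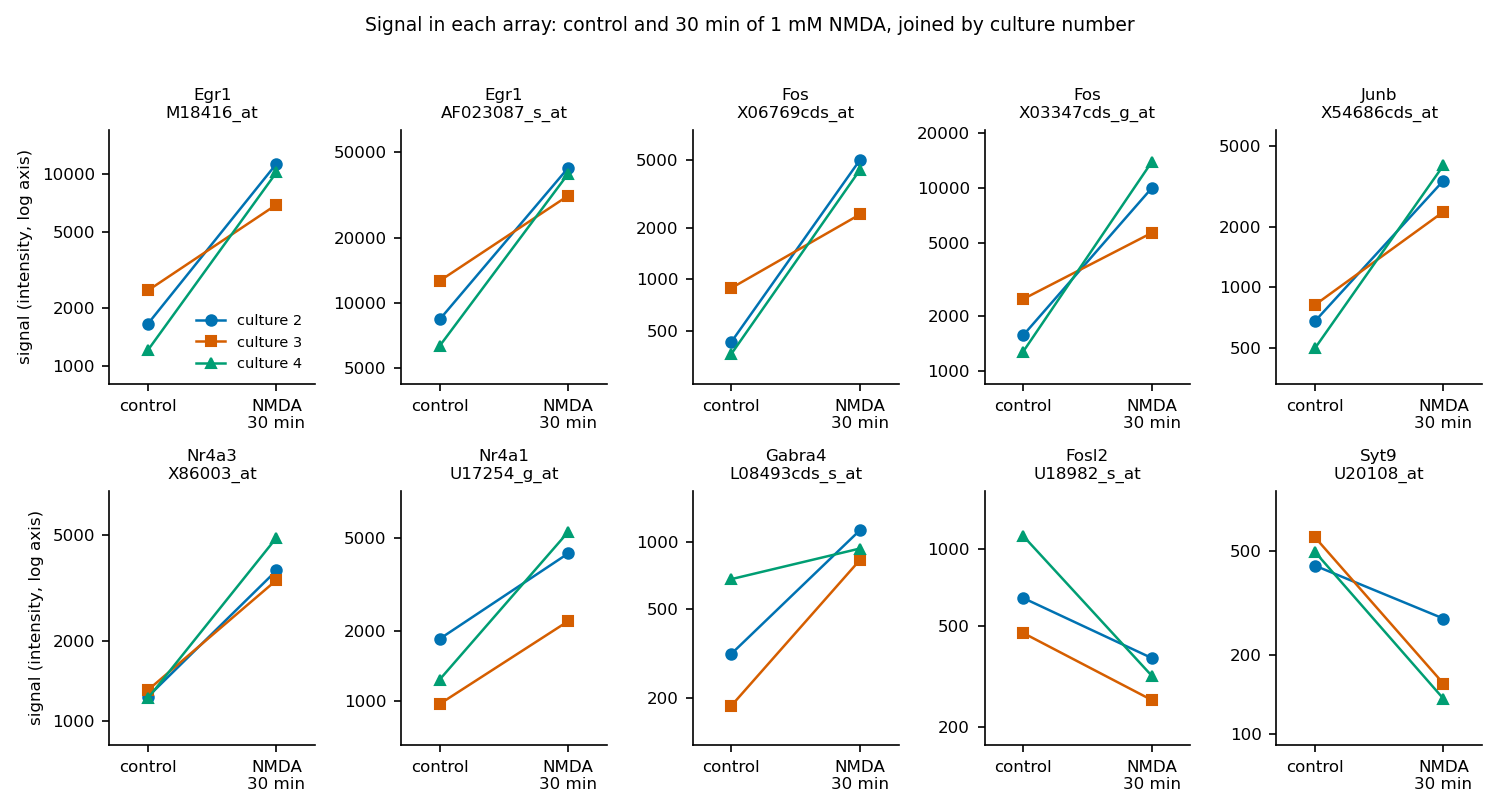
Signal (intensity, logarithmic axis) in the control and the 30 min array of cultures 2, 3 and 4, joined by a line, for 10 probe sets. The first 8 panels (Egr1, Fos, Junb, Nr4a3, Nr4a1, Gabra4) have all treated points above all controls, the last 2 (Fosl2, Syt9) have all below, and at the Egr1, Fos and Junb panels culture 3 has the highest control and the lowest treated point.

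Culture 3 showed the smallest change in most of these genes. At M18416_at its log2 difference was 1.45, against 2.70 and 2.98 in cultures 2 and 4, and at Fos X06769cds_at it was 1.35 against 3.29 and 3.30. At Junb it was 1.44 against 2.18 and 2.81. The unnamed probe set was closer to even, at 1.58 in culture 3 against 2.03 and 1.93. In the same culture the astrocyte marker sum was lowest, 52604 and 51854 against 82352 or more in the other arrays of both groups. The neuron marker sum of culture 3 was the highest of each group, 253789 in the controls and 235514 after 30 min. So was its Gapdh 3′ to 5′ ratio, 1.75 and 1.91. The part of these traits in the smaller change was not tested.

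The other genes of the list did not pass at 30 min. The brightest Bdnf probe set, D10938exon_s_at, read 667, 352 and 458 in the controls and 747, 617 and 568 after NMDA (log2 change 0.36 ± 0.66). Of the 7 Bdnf probe sets 5 differed upward and 2 downward, between -1.16 and 0.81, and none had all treated values above the controls. Crem, the CREB-related modulator, differed by -0.12 ± 0.65, and Nptx2, a secreted pentraxin of excitatory synapses, by -0.40 ± 0.31. The enkephalin precursor Penk differed by 0.02 ± 0.43 and the granin Vgf by -0.08 ± 0.35. The prostaglandin synthase Ptgs2 differed by 0.28 ± 0.43, Igf1 by -0.03 ± 0.36, Nefl by -0.01 ± 0.30, Creb1 by -0.17 ± 0.45 and the tissue plasminogen activator gene Plat by -0.15 ± 0.33. With each gene taken by its brightest probe set, 18 of the 19 listed genes were tested. Of these 0 passed in the limma fit, 1 (Egr1) passed with the block, 4 had an unadjusted p under 0.05, and the median log2 change was 0.00, against -0.01 over all probe sets.

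Within the run, the later exposures show where these genes stood on the way. All the times share the same 3 control arrays, so their changes are given side by side and not compared with each other. Egr1 at M18416_at differed from control by 0.45, 2.38, 2.75, 1.71 and 1.16 at 10, 30, 60, 180 and 360 min. Fos at X06769cds_at differed by 1.15, 2.64, 3.23, 3.60 and 3.33. Nr4a1 at U17254_g_at differed by 0.26, 1.44, 3.12, 3.26 and 2.83. In the limma fit without the block, Egr1 at this probe set passed at 60 min (adjusted p = 0.0197). Fos and Nr4a1 passed at 60 min (0.0393 and 0.0378) and at 180 min (0.0409 for both). Bdnf at D10938exon_s_at differed by 0.68, 0.36, 0.68, 2.37 and 2.75, with 1 of its 10 min arrays, culture 2, at 3006 and the other two at 407 and 403. Fosl2 differed by -0.81, -0.98, 0.62, 1.96 and 2.15, and Crem by 0.18, -0.12, 0.39, 1.79 and 2.03. Neither passed at 180 or 360 min in the limma fit with or without the block. Other listed genes differed less at those times: Nptx2 at S82649_s_at by 0.12 and 0.57, Penk at S49491_s_at by 0.39 and 0.81, Nefl at AF031880_at by 0.24 and 0.36 and Ptgs2 by -0.19 and 0.49, and none of these passed. Vgf differed by 0.72 and 1.42, and at 360 min it passed with the block (limma adjusted p = 0.00858) but not without it (0.0974). Nr4a3 at rc_AI176710_at, near 0 at 30 min, differed by 1.13 and 1.11 at 180 and 360 min, without passing. The late means join unlike cultures. At 180 min Egr1 at M18416_at read 11897, 2270 and 7106 in cultures 2, 3 and 4, with culture 3 under its own control of 2478. Fos at X06769cds_at read 13713, 2039 and 13941 at that time, and Fosl2 read 6343, 695 and 8371 at 360 min. One array of the run, 360 min of culture 3, stood apart (median correlation 0.786 with the other arrays, against at least 0.86 for every other). Without it 1 probe set passed at 30 min, Egr1 AF023087_s_at (limma adjusted p = 0.0411), and with the block 7 did.

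**Figure D3:**
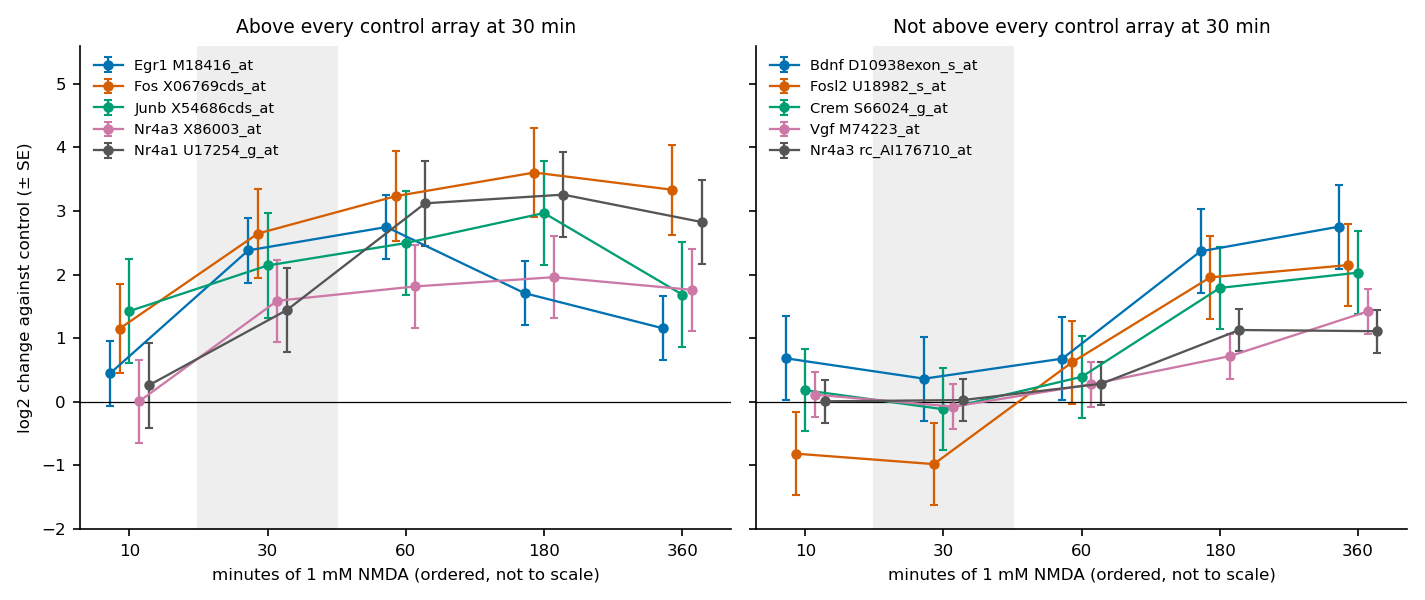
Log2 change against control (± SE, n = 3 arrays a group) at each length of exposure, with 30 min shaded and the times evenly spaced. The 5 probe sets on the left lie between 1.44 and 2.64 at 30 min, and the 5 on the right lie between -0.98 and 0.36 at 30 min and above 0.7 at 180 and 360 min.

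Transcripts of the receptor that NMDA opens showed no detectable difference. All 7 genes of the NMDA receptor list were tested, 0 passed in the limma fit with or without the block, 0 had an unadjusted p under 0.05, and their log2 changes ran from -0.34 to 0.18 with a median of 0.03. Grin1, the subunit present in every NMDA receptor, read 2396, 1610 and 1295 in the controls and 2186, 1326 and 2087 after NMDA (0.09 ± 0.38). Grin2b, the subunit typical of young cortical neurons, read 2881, 1774 and 2252 against 2572, 2219 and 2168 (0.03 ± 0.27). The intervals of these differences, -0.72 to 0.89 and -0.55 to 0.61, leave room for moderate changes in either direction. Grin2a differed by -0.19 ± 0.58, Grin2c by 0.18 ± 0.40, Grin2d by 0.11 ± 0.41 and Grin3a by -0.34 ± 0.46. The NMDA receptor-associated gene Grina was among the brightest probe sets, at 30836 to 33292 in the controls and 28220 to 32370 after NMDA (-0.07 ± 0.16).

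The other gene lists stayed near the median of all probe sets, and the limma fit passed 0 of their members with or without the block. Among 7 AMPA and kainate receptor genes the median log2 change was -0.06 and the widest was -0.67 for Grik3. Among 6 metabotropic receptors it was -0.07, with Grm3 at -0.39 and Grm6 at 0.31. The 18 calcium and kinase signalling genes lay between -0.31 (Camk2g) and 0.13 (Map2k2). The 14 cell death genes lay between -0.24 for the receptor gene Tnfrsf1a and 0.23 for Casp6, and the 8 stress genes between -0.20 for Sod2 and 0.27 for the heat shock gene Hspa1a. Both postsynaptic scaffold genes tested, Dlg4 and Dlg3, were within 0.07 of 0. Of 15 neurotrophic genes Gdnf differed most (0.59), and of 15 sodium and calcium channels Cacna1d did (0.41). Among 16 potassium channels Kcnma1 differed by 0.61 and Kcnk1 was above every control (0.34). The 14 synaptic vesicle genes ran from -0.49 for Nrxn3 to 0.19 for Syt5, and the 10 neuropeptides and granins from -0.37 for Sst to 0.34 for Oxt. Medians were -0.03 for 11 neuron, -0.09 for 7 astrocyte and -0.11 for 4 oligodendrocyte markers.

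**Figure D4:**
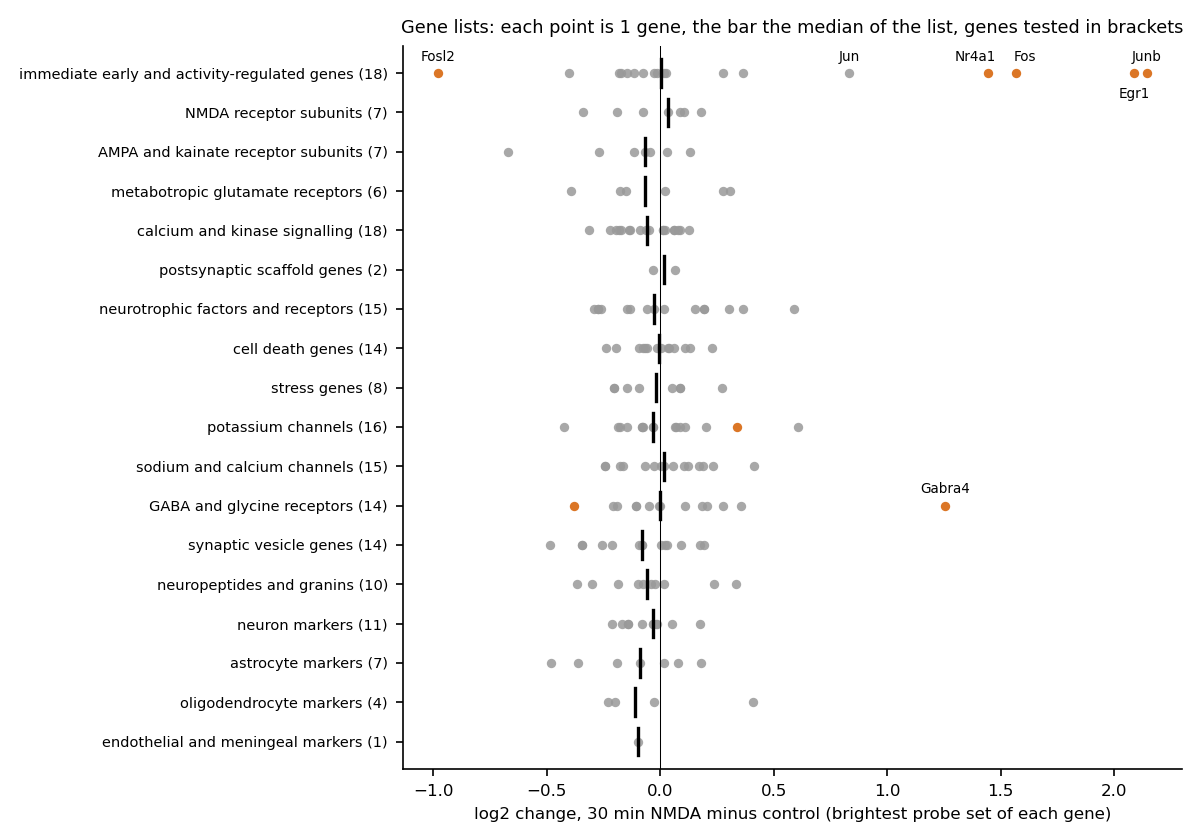
Log2 change after 30 min of NMDA (horizontal) for each tested gene of the 18 lists with a tested member, by its brightest probe set, with the list median as a bar. Orange points have 3 treated values all above or all below the 3 controls. Egr1, Junb, Fos, Nr4a1 and Gabra4 are the points beyond 1, and every list median lies between -0.11 and 0.03.

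Gabra4, which encodes the alpha4 subunit of the GABA-A receptor, was the 1 gene outside the immediate early list with a log2 change over 1 and no overlap. Its probe set read 316, 185 and 683 in the controls and 1131, 833 and 937 after 30 min (1.26 ± 0.48, limma adjusted p = 0.998, block 0.224). The increase was 3.57-fold, 4.49-fold and 1.37-fold in cultures 2, 3 and 4. At 10 min it read 236, 145 and 686, and at 60 min 282, 340 and 592, so neither neighbouring time stood above the controls. The 13 other tested genes of its list lay between -0.38 and 0.35. Cacna1a, the twelfth of the largest rises without overlap, was above the controls at AF051526_at (0.85 ± 0.55) but not at its brightest probe set (0.06).

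Of the 14 probe sets below every control, 10 had 1 gene, and 0 passed in the limma fit with or without the block. Syt9, a synaptotagmin, read 438, 562 and 494 in the controls and 276, 156 and 137 after NMDA (-1.11 ± 0.42). At 60 min it read 405, 886 and 394, all above its 30 min values. Kcnh2, a voltage-gated potassium channel, read 710, 930 and 1102 against 349, 389 and 446 at Z96106_at (-1.04 ± 0.47), while its brightest probe set differed by -0.08. The others with 1 gene were Fosl2, the channel Kcnh8 (-0.69), the thyroid hormone receptor Thra (-0.64), the muscarinic receptors Chrm2 (-0.55 at J03025_at, but 0.17 at AB017655_s_at) and Chrm3 (-0.44), the GABA-A subunit Gabra3 (-0.38), Pcp4 (-0.33) and the vesicular GABA transporter Slc32a1 (-0.22). Syt9, Kcnh2 at Z96106_at, Fosl2, Kcnh8, Chrm2 and Chrm3 had no treated value above 446.5, which is near or under the filter at a mean signal of 358.

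The step from 10 to 30 min was then tested directly. In the limma fit 0 of 884 probe sets passed (0%), and 76 had an unadjusted p under 0.05. With the block 16 passed (1.81%), 13 higher and 3 lower at 30 min, and 135 had an unadjusted p under 0.05. They included Egr1 at M18416_at, which read 1871, 2190 and 3225 at 10 min and 11315, 6927 and 10199 at 30 min. This is a difference of 1.93 ± 0.51, with a limma adjusted p of 0.195 without and 0.0261 with the block. Egr1 at rc_AI176662_s_at differed by 1.68 ± 0.46 (block 0.0425), and Gabra4 by 1.44 ± 0.48 (block 0.0425). Fos at X06769cds_at differed by 1.49 ± 0.71 and Junb by 0.72 ± 0.82, and neither passed with the block (0.152 and 0.652). Junb at 10 min already read 3092, 1242 and 1778, above its 3 controls.

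Of the remaining 13 calls, 10 concerned genes that read within or near the control range at 30 min and mostly below it at 10 min. The elongation factor gene Eef2 at rc_AA892801_g_at read 20145 to 28580 in the controls, 8377 to 17015 at 10 min and 26793 to 31315 at 30 min, a difference of 1.30 ± 0.27 (limma adjusted p = 0.071, block 0.0261). A second probe set annotated to Eef2, the chaperone Canx, the syntaxin Stx12, the chloride transporter Clcn4, the glutamate transporter Slc1a3, the syndecan Sdc3, the kinase Mapk9, the lipoprotein receptor Scarb1 and the protein kinase A inhibitor Pkia were likewise higher at 30 than at 10 min, by 1.23 to 1.82. The 3 lower were all probe sets of Gnb1, a G protein subunit, by -1.18 to -1.50, with 10 min of culture 2 far above the rest (13691 at U88324_at, against 3911 and 3194). The 10 min arrays had Gapdh 3′ to 5′ ratios of 2.41, 2.27 and 1.61, against 1.35, 1.91 and 1.53 at 30 min, and the part of this in the 16 calls was not tested. With the arrays centred on their medians and the block, 0 passed and 111 had an unadjusted p under 0.05. Without culture 4 at 10 min 8 passed, and 45 with the block. With the block and without culture 2 at 10 min or any 1 of the 30 min arrays 0 passed, while leaving out 360 min of culture 3 gave 25.

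Between 30 and 60 min 0 of 884 probe sets passed (0%) in the limma fit, with or without the block, and 8 and 17 had an unadjusted p under 0.05. The smallest p-values belonged to 5 probe sets that did not pass. The muscarinic receptor Chrm5 was higher at 60 min (1.37 ± 0.43), as were Syt9 (1.19 ± 0.42) and Nr4a1 at U17254_at (1.73 ± 0.64). The channel Kcnh3 (-1.31 ± 0.43) and the prostaglandin receptor Ptgfr (-1.10 ± 0.44) were lower. Chrm5 at 30 min read 365, 309 and 483, against 351, 1286 and 1465 in the controls and 1095, 1374 and 924 at 60 min. Nr4a1 at U17254_at read 14324, 4339 and 11103 at 60 min, all above its 30 min values, with a block-adjusted limma p of 0.569. Egr1 at M18416_at differed by 0.37 ± 0.51 and Fos at X06769cds_at by 0.59 ± 0.71 between the 2 times, with 95% intervals of -0.70 to 1.43 and -0.90 to 2.08.

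The same 30 min of 1 mM NMDA was also given as a pulse in another run, where the cells were washed and collected 24 h later (4 pulse and 4 control arrays). Of the 4 cultures of that run 2 carry the same label apart from a suffix, and the first pulse array is named and described as 30 min while its measurement field gives 60 min. Each exposure was set against the controls of its own run in 1 limma fit of 34 arrays, with an offset of 74.2, and the difference between the changes was tested. Of 884 probe sets 1 passed (0.113%), lower at the end of exposure than after the pulse, and 23 had an unadjusted p under 0.05. With the block 4 passed, all in the same direction, and 44 had an unadjusted p under 0.05. The difference sets together the washout, the 24 h and the run, which cannot be told apart.

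The call was Bdnf at S71196mRNA_s_at. Its pulse controls read 305, 302, 107 and 329 and the pulse arrays 2087, 1589, 1084 and 1477, while the continuous run read 567, 163 and 934 in the controls and 92.6, 280 and 140 after 30 min. The pulse groups did not overlap, whereas in the continuous run cultures 2 and 4 were lower after NMDA and culture 3 was higher. The difference was -3.52 ± 0.74 (SE; 95% interval -5.02 to -2.02; limma adjusted p = 0.0363, with the block 0.0169). The 30 min values lie below the filter at a mean signal of 358, so the size depends on the offset: it was -2.80 with the offset at the 25th percentile and -3.91 at the 2nd. It passed under 8 of the 22 alternatives tried, with adjusted p-values from 0.00443 to 0.226, and in 4 of the 14 fits that left out 1 array. Without the pulse array of conflicting labels it was -3.37 (limma adjusted p = 0.12). The Bdnf probe sets rc_AI030286_s_at and D10938exon_s_at differed the same way, by -2.52 ± 0.77 and -2.28 ± 0.77, without passing (limma adjusted p = 0.817 and 0.87). The other 4 of the 7 Bdnf probe sets did not pass either, with S76758_i_at at -2.06 ± 0.90, X67108_at at -0.79 ± 0.71, S76799_at at -0.45 ± 0.50 and S71201mRNA_at the other way at 0.79 ± 0.94.

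Nptx2 at S82649_s_at, Penk at S49491_s_at and Crem, which did not pass at 30 min of exposure, rose after the pulse (limma adjusted p = 0.0219, 0.00952 and 0.0267). Nptx2 went from 1144 to 5047 in the pulse controls to 3856 to 13764 after the pulse, which overlap, and the difference between the exposures was -2.26 ± 0.69 (limma adjusted p = 0.817, block 0.0315). Penk read 921 to 1656 in the pulse controls and 3328 to 5945 after the pulse, a difference of -1.71 ± 0.58 (0.87, block 0.0393). Another probe set of each gene did not pass after the pulse. Nptx2 at S82649_r_at changed by 0.98 (limma adjusted p = 0.773) and Penk at rc_AI009300_at by -0.19 (0.998). Somatostatin, Sst, at K02248cds_s_at was 1.69 ± 0.92 above control after the pulse, which did not pass (limma adjusted p = 0.891). The difference between the exposures was -2.06 ± 1.40 (limma adjusted p = 0.998, block 0.0393). The brightest Sst probe set, M25890_at, was not among the calls. Crem was 2.06 above its control after the pulse, against -0.12 at the end of exposure in this fit. The differences for Crem, -2.18 ± 0.79, and Fosl2, -2.69 ± 0.95, did not pass (limma adjusted p = 0.87 for both).

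The first-wave genes were above control at the end of exposure, and Fos and Nr4a1 rose after the pulse as well (limma adjusted p = 0.0138 for both). Fos at X06769cds_at was 2.67 above control at the end of exposure and 2.39 above control 24 h after the pulse, a difference of 0.28 ± 0.84 (95% interval -1.44 to 1.99). Nr4a1 at U17254_g_at was 1.45 and 2.21 above control. Egr1 at M18416_at was 2.39 and 0.59 above control, a difference of 1.79 ± 0.83 that did not pass (limma adjusted p = 0.998), and its pulse controls already read 1677 to 7282, against 1214 to 2478 in the controls of the continuous run. Junb was 2.16 and 1.51 above control, with a difference of 0.66 ± 0.93. The probe sets of Nr4a3 disagreed here too. X86003_at, above every control at the end of exposure, was 0.73 above control after the pulse without passing (limma adjusted p = 0.998). For rc_AI176710_at the change was 0.03 at the end of exposure and 1.45 after the pulse, which passed (limma adjusted p = 0.00903). The differences, 0.87 ± 0.73 and -1.42 ± 0.48 in the same order, did not pass (limma adjusted p = 0.998 and 0.87).

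**Figure D5:**
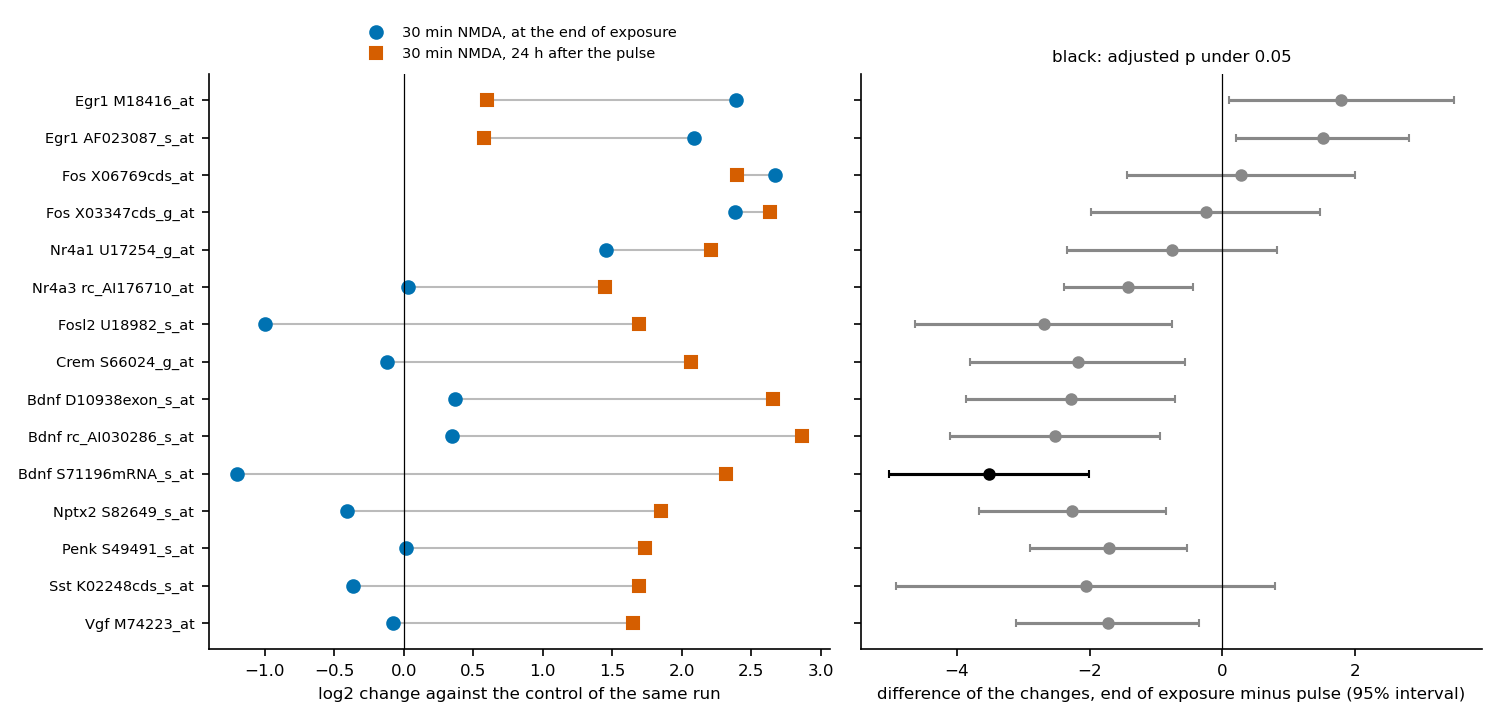
Left, log2 change of 30 min NMDA against the controls of its own run, at the end of exposure (blue circles, n = 3 a group) and 24 h after a pulse (orange squares, n = 4 a group). Right, the difference of both changes with its 95% interval, black where the adjusted p is under 0.05, which holds for Bdnf S71196mRNA_s_at at -3.52 alone among the 15 probe sets drawn.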

How the data were processed

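The series is a table of 112 arrays deposited by the authors as linear intensity, 1 value per probe set. Per the deposited values, each array is scaled to a common mean (2% trimmed means 2510 to 2513 in the run of 18 arrays used here). The software, the background correction and the filter behind them are not given in the sources used here. The probe set names are of the Affymetrix type. Of 1322 probe sets 59 controls were left out. Of the other 1263, GEO's platform annotation, which can be old, gives 1137 1 gene (720 genes), 8 several and 118 none.

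Computed here: log2(intensity + 86.0), the offset being the 10th percentile; a filter at the 30th percentile of mean signal (358), leaving 884 probe sets; and limma 3.58.1 in R 4.3.3, with 6 group means over 18 arrays, an intensity trend, 2-sided tests, Benjamini-Hochberg adjustment and a threshold of 0.05. The pulse comparison fitted 34 arrays with an offset of 74.2. The scripts were tested on simulated data. Equal culture numbers were taken as pairs since deviations from group means correlated over 0.1 in every pair: 0.467, 0.537 and 0.254 between control and 30 min, 0.264 to 0.494 between 10 and 30 min, 0.260 to 0.503 between 30 and 60 min, and 0.299 to 0.474 in the pulse run. The block result is printed where it changes a call. No 2 arrays were copies of each other. The number of arrays limits the precision.

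Named are the probe sets past the threshold in either fit, and the 12 largest rises and falls with 1 gene whose groups do not overlap (10 falls existed). All tested immediate early genes and NMDA receptor genes are named, and up to 4 members of each other list by size. For the time and pulse differences the calls are named, or otherwise the 5 smallest p-values. The genes shown over all times or after the pulse beyond these are members of the immediate early list. The comparison, the 19 gene lists and the rules were chosen with earlier results of these data known. Alternatives were the block, 2 groups alone, centring, quantile normalization, other offsets and filters, no trend, robust variance, and leaving out each array. Figures were drawn with matplotlib 3.10.9.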

Additional observations from a re-analysis of the deposited data

Results flagged for a closer look

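At the Bdnf probe set S71196mRNA_s_at the pulse control of the third culture read 106.8, far below the other three pulse controls at 302.4 to 328.7. At the Bdnf probe set D10938exon_s_at the pulse control of the first culture read 1122.3, far above the other three at 402.2 to 521.9. Both stand farther from the rest of their group than Dixon's 95% limit allows, 2 of the 14 groups of 4 arrays looked at, where chance gives about 5%. The change at Bdnf S71196mRNA_s_at at the end of 30 min of NMDA differed from the change 24 h after a 30 min pulse, with a difference of -3.52 on the log2 scale in the limma test of the difference itself. Without the pulse control that read 106.8 the difference was -3.25 and did not pass (limma adjusted p = 0.136).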

How the results depend on the processing

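For 30 min against control, 0 probe sets passed under other offsets, other filters, median centring, quantile normalization, no intensity trend and robust variance. The count was 4 with the replicate block, 8 with the 2 groups alone and 9 with the 2 groups and the block. It was 1 without the 360 min array that stands apart, 7 without it and with the block, 4 with the block and median centring and 3 with the block and quantile normalization. Leaving out 1 array gave 0 without the block and 0 to 8 with it, 8 only without the control of culture 3. The 4 probe sets that passed with the block did so in 6 to 8 of 27 alternatives each, always higher. For 30 against 10 min, 0 passed under offsets, filters, median centring with or without the block, and the 2 groups alone. The count was 2 with quantile normalization, 16 with the replicate block, 4 with the block and quantile normalization, 2 without the 360 min array and 25 without it and with the block. Leaving out 1 array gave 0 to 8, and with the block 0 to 45 (17 without culture 3 and 45 without culture 4 at 10 min, 0 otherwise). For 60 against 30 min the count was 0 under every alternative run. For the end of exposure against the pulse, 1 became 0 with the offset at the 2nd percentile, with no filter, with median centring and with quantile normalization, and 4 with the replicate block, while leaving out 1 array gave 0 to 1. The block also moved counts of calls at the other times (60 min 6 to 9, 180 min 4 to 8, 360 min 0 to 9 higher and 1 lower), for the pulse against its controls (16 higher to 21 higher and 5 lower) and for 30 min against control in the 34-array fit (0 to 7). Blocks fitted with 1 array missing, blocks with another scaling, 2-group fits of the time steps, and fits of the other comparisons without the 360 min array were chosen after seeing the data.

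Of the single values for 30 min against control, 1409 of 1455 kept their side of the threshold and 44 passed newly. Among the former, 80 at 21 probe sets had the other sign but moved by less than 1 SE, the largest of them 0.36 in size as reported. Bdnf rc_AI030286_s_at, at 0.32 as reported, ran from -0.30 without the control of culture 4 to 0.76 without that of culture 3, and from -0.45 to 0.95 in the same order with the block. The cause of these shifts was not tested.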
